A study of Mus musculus with 21 samples.

Results

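Enzymes that process foreign compounds and monoamines in brain endothelium were followed through 2 mouse experiments: the cytosolic sulfotransferase gene Sult1a1, the glutathione transferase genes Gstm1 and Gsta4, the microsomal epoxide hydrolase gene Ephx1, the cytochrome P450 reductase gene Por and the monoamine oxidase gene Maoa. The set is defined by function and holds 6 genes, out of 24206 uniquely named genes in the expression table. It was chosen with earlier results of these data known. Sult1a1 was put in the set for its large fall after stroke, so its values in the stroke experiment are given as a description with no test. The other 5 genes were tested in both experiments, and Sult1a1 in the second experiment only.

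Endothelial cells of the brain carry part of the chemical barrier between blood and nervous tissue. Lipophilic molecules are first oxidised, mostly by P450 enzymes that receive their electrons from Por, or their epoxides are opened by Ephx1, and the products are then coupled to sulfate by sulfotransferases or to glutathione by glutathione transferases. Maoa sits in the outer mitochondrial membrane and deaminates serotonin, noradrenaline and dopamine, and Ddc, the decarboxylase that makes dopamine and serotonin from their precursors, is also known from brain microvessels, where the 2 enzymes limit the entry of monoamine precursors.

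The stroke experiment held 16 libraries of sorted brain endothelial cells (live, CD45-, CD31+, PDGFRb-) from adult C57BL/6 mice of 12 to 20 weeks. Stroke was a middle cerebral artery occlusion of 1 h with 1 d of reperfusion. WT-NS and WT-ST (4 libraries each) came from the non-stroke and the stroke hemisphere of Gpr124 flox/+; ROSA-CreER+ mice, and Cko-NS and Cko-ST (4 each) from those of Gpr124 flox/-; ROSA-CreER+ mice, the conditional knockouts of Gpr124, an endothelial co-receptor of Wnt7 signalling. All 4 groups carry ROSA-CreER, which is not limited to endothelium, all carry at least 1 floxed Gpr124 allele, and the labels give the occlusion for all 4, so no library stands for a mouse without stroke. The second experiment compared 3 libraries named Bcat, from Ctnnb1 lox(ex3)/+; Cdh5-CreER+ mice with a stabilised beta-catenin in endothelium, with 2 libraries named WT, from Ctnnb1 +/+; Cdh5-CreER+ mice of the same strain and age. Induction of the Cre was not stated in the sources read here. By label, all WT-NS, WT-ST and Cko-NS libraries were female, as were Cko-ST-01 and Cko-ST-02. Cko-ST-03, Cko-ST-04 and all libraries of the second experiment were labelled male. Sex by label thus differs between Cko-ST and the other stroke groups and between the experiments. By Xist and Y-linked genes, Cko-NS-04 and Cko-ST-04 read as male and all other stroke libraries as female. By these genes the 2 knockout groups were alike in sex and differed from the control groups. The part of sex was not tested. The 16 libraries were prepared from amplified 3' ends of polyA RNA and the other 5 from total RNA, so levels were not compared between the experiments. Nor do the labels say which libraries came from separate animals, and p-values measure only the spread between these libraries.

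Expression is given in RPKM, reads scaled to the gene's length and to the library's total. Estimated depth in the stroke libraries ran from 4720000 to 19750000 reads. At these depths 11.5 to 17.5% of the low values of 2921 short genes fell on whole reads within 0.02 of a read. Random values would give 4% at a fixed depth. Each depth was the best of a search, which raises the share. In the libraries of the second experiment the same search gave 6.5 to 8%. All 10 endothelial markers were above 0 in every group of both experiments, with summed levels of 1278 to 1986 RPKM in the stroke libraries. The sums were 1278 to 1560 RPKM in WT-NS and 1743 to 1986 in Cko-NS, without overlap. They were 1497 to 1975 in WT-ST and 1615 to 1923 in Cko-ST. The part of these sums in the comparisons was not tested. Gpr124, the targeted gene, was at 4.49 ± 2.25 RPKM in WT-NS and 2.76 ± 1.65 in Cko-NS (SD, n = 4), with overlapping ranges, and at 4.99 ± 2.52 in WT-ST and 1.37 ± 0.585 in Cko-ST, without overlap. Reads from 3' ends outside the deleted part cannot report the deletion, and the labels do not give that part. In 2 libraries the sex-linked genes went against the label: Cko-NS-04, labelled female, had Xist at 1.48 RPKM and Y-linked genes at a sum of 189, and Cko-ST-03, labelled male, had Xist at 89.7 and a Y-linked sum of 0.423. Results in the knockouts are therefore given with and without these 2 libraries where the call depends on them. Leaving out both leaves Cko-ST-04 as the only stroke-experiment library with male sex-linked genes, and splits the pairs numbered 03 and 04. That setting is thus no correction for sex, since the knockout hemispheres then differ in it. In bulk samples, fewer cells of a type and less RNA per cell cannot be told apart.

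The RefSeq promoter windows of Gstm1 and Ephx1, which had the lowest log2 differences after stroke among the tested members in both genotypes, of Sult1a1, chosen for its fall, and of Por, which did not pass the test, are shown for comparison. Each window runs from 250 bases before to 50 bases after a RefSeq start on GRCm38.p6, written 5′ to 3′ on the gene's strand. Capitals mark the core of the motif bound by the aryl hydrocarbon receptor, GCGTG or its reverse complement CACGC.
Sult1a1, chr7:126676369-126676668, minus strand: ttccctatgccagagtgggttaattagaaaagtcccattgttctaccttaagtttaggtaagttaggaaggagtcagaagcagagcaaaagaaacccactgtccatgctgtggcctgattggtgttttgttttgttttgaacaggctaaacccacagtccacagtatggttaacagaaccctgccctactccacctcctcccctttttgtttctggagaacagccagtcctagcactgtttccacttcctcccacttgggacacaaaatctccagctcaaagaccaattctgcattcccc
Gstm1, chr3:108017924-108018223, minus strand: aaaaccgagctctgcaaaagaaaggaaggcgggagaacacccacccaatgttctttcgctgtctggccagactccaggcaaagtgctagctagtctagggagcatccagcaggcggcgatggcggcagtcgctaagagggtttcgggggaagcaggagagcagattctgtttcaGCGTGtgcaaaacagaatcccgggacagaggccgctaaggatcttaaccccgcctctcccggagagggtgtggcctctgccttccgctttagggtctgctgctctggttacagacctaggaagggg
Ephx1, chr1:181017520-181017819, minus strand: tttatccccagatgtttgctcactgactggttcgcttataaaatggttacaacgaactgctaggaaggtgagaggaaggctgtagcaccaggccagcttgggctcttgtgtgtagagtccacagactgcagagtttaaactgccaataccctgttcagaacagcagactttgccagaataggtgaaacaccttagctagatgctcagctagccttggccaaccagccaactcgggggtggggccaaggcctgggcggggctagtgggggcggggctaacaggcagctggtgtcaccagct
Por, chr5:135688895-135689194, plus strand: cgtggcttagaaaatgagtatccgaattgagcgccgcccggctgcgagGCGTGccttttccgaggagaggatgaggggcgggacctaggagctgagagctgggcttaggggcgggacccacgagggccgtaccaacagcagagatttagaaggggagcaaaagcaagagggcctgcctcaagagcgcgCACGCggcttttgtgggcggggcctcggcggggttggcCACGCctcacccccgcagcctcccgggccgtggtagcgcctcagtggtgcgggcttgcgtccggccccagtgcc

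The aryl hydrocarbon receptor core was present once in the first Gstm1 window, beginning 76 bases before the start, and 3 times in the Por window, 202, 62 and 24 bases before it. No match was found in the Sult1a1 and Ephx1 windows printed above, nor in the Maoa window at chrX:16619448-16619747. Of 32851 RefSeq windows of the same length, 32.4% held this core on either strand. The core of the Nrf2 motif, TGACNNNGC, was in 12.4% of all windows and the Tcf/Lef core, CTTTGAT, in 3.73%, and neither was found in the windows of the 5 genes with an entry. The 3 motifs were searched on both strands, and none of the matches printed overlaps another. A match is a description of these letters and not a binding site.

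By GENCODE annotation on GRCm38, Sult1a1 lies on chromosome 7 at 126672865 to 126676432 on the minus strand, and its 3' end overlaps that of Sgf29, listed as Ccdc101, by 61 bases on the other strand. Whether reads were counted by strand is not given in the sources used here, so the reads of the 2 genes cannot be told apart in that overlap. Ccdc101 was at 6.68 ± 6.02 RPKM in WT-NS, 8.23 ± 9.20 in WT-ST, 5.41 ± 5.44 in Cko-NS and 11.0 ± 12.3 in Cko-ST (SD, n = 4), up to 21.8 in WT-ST and 29.1 in Cko-ST. RPKM from 3' reads is not comparable between genes, so the size of any shared part in Sult1a1 is not known. Gstm1 lies on chromosome 3 (108012255 to 108017973, minus strand), Gsta4 on chromosome 9 (78182774 to 78209349, plus strand), Ephx1 on chromosome 1 (180976210 to 181020904, minus strand), Por on chromosome 5 (135670033 to 135735326, plus strand) and Maoa on chromosome X (16619698 to 16687818, plus strand). In the last 500 transcript bases, 0 of 451 windows of 50 bases were found in another gene's transcripts for Sult1a1, Gsta4, Ephx1 and Por. For Gstm1, 4 windows (0.887%) were shared with Gstm3, and for Maoa 17 (3.77%) were shared with other genes, so a small part of the Gstm1 and Maoa signal is uncertain.

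After stroke, Ephx1, Gstm1 and Maoa fell in the control mice, and those 3 and Gsta4 fell in the Gpr124 knockouts, while Por did not pass the test in either genotype. In the controls 3 of the 5 tested genes were called lower by limma (adjusted p under 0.05), where 4.84% of the 9838 genes tested were called lower and 8.46% higher, and their median log2 difference was -0.75 against 0.01 for all genes. In the knockouts 4 of 5 were called lower, where 8.71% of all genes were (6.44% were called higher), with a median of -1.41 against -0.13. Without the 2 libraries at odds with their sex label, the count in the knockouts was 2. In that setting Cko-ST-04 is the only library with male sex-linked genes. With no filter on low values the counts were 2 in the controls and 3 in the knockouts. Libraries of the 2 hemispheres did not overlap, with stroke lower, for Gstm1, Ephx1 and Maoa in the controls, as for 8.7% of all genes, and for Gstm1, Gsta4 and Ephx1 in the knockouts, as for 11.4%. In either direction 13.3% of genes were called in the controls and 15.2% in the knockouts. The 2 comparisons use different libraries. Because the members, and the lists below, were chosen with earlier results of these data known, their counts and medians beside all genes are a description. They do not test whether the set fell more than other genes.

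**Figure D1:**
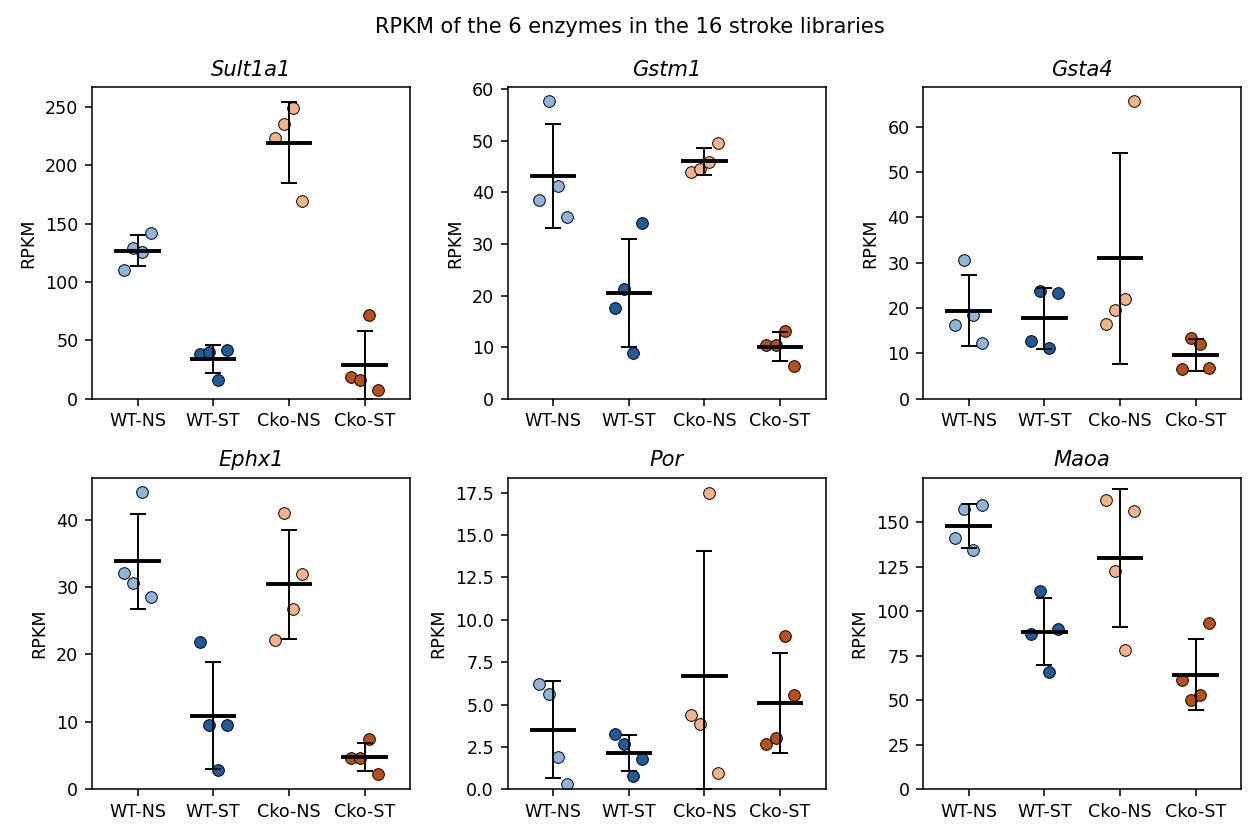
RPKM of the 6 enzyme genes in the 16 stroke libraries, a panel per gene with its own linear axis starting at 0. Points are libraries, bars group means and error bars 1 SD (n = 4 a group, lower bar end held at 0). For Ephx1 all stroke libraries lie below all non-stroke libraries of their genotype, whereas Por overlaps. Sult1a1 is also separated, but it was chosen for its fall and is shown as a description.

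Ephx1, which opens reactive epoxides to diols, was the tested member with the largest fall in both genotypes. Its levels were 32.1, 30.6, 44.1 and 28.5 RPKM in WT-NS libraries 01 to 04 and 21.8, 9.53, 2.83 and 9.54 in WT-ST. All stroke libraries were below all non-stroke libraries, and WT-ST-03 was the lowest of them. The mean went from 33.8 ± 7.01 to 10.9 ± 7.90 RPKM (SD, n = 4), a log2 difference of -1.79 ± 0.40 (SE) with an adjusted p of 0.00572 in limma. In the knockouts Ephx1 stood at 22.1, 40.9, 26.8 and 32.0 RPKM in Cko-NS and at 4.58, 4.71, 7.42 and 2.31 in Cko-ST, again with no overlap. Their log2 difference was -2.49 ± 0.40 (adjusted p = 4.13e-04), and no alternative setting or left-out library ended the call in either genotype. Without the 2 libraries at odds with their sex label it was -2.66 (adjusted p = 0.00117).

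Gstm1, a cytosolic glutathione transferase of the mu class, fell in both genotypes. Its RPKM values were 38.5, 57.8, 41.3 and 35.3 in WT-NS and 17.7, 21.3, 8.81 and 34.0 in WT-ST. The groups did not overlap, but the 34.0 of WT-ST-04 came close to the 35.3 of WT-NS-04. Between the means the log2 difference was -1.16 ± 0.30 (SE; adjusted p = 0.0149). Leaving out WT-NS-02 or WT-ST-03 ended this call, with adjusted p of 0.0531 and 0.0503. In the knockouts the non-stroke libraries were tightly grouped at 44.0, 44.5, 46.0 and 49.7 RPKM and the stroke libraries at 10.4, 10.4, 13.2 and 6.38. The means were 46.0 ± 2.55 and 10.1 ± 2.81 (SD, n = 4). This gave a log2 difference of -2.12 ± 0.30 with an adjusted p of 1.35e-04, and it was called under every alternative run.

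Gsta4, the alpha-class transferase that conjugates the lipid peroxidation product 4-hydroxynonenal, was called in the knockouts only, and the difference between the genotypes did not pass its own test. In the controls it was at 16.4, 30.5, 18.5 and 12.4 RPKM in WT-NS and 12.7, 23.8, 11.1 and 23.3 in WT-ST, and the ranges overlapped. The log2 difference was -0.13 ± 0.40 (SE), with a 95% interval of -0.96 to 0.70. In the knockouts it was at 16.4, 19.5, 22.1 and 65.7 RPKM in Cko-NS and 6.48, 13.3, 12.1 and 6.86 in Cko-ST. Every stroke library lay below every non-stroke one, and Cko-NS-04, 1 of the libraries at odds with its sex label, stood far above the others. Gsta4 thus fell there, with a log2 difference of -1.41 ± 0.40 (adjusted p = 0.0216). It was -0.98 without Cko-NS-04 (adjusted p = 0.0647) and -1.10 without both libraries at odds with their label (adjusted p = 0.0553), and leaving out Cko-ST-01 (0.0687) or Cko-ST-04 (0.0599), no filter on low values (0.0573) or the 2-group fit (0.050005) also ended the call. Cko-NS-04 also had the highest summed levels of the neuron markers (49.7 RPKM), astrocyte markers (18.2) and blood leukocyte markers (83.7) of the 16 libraries, and their part in the Gsta4 value was not tested.

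Por, the flavoprotein that passes electrons to microsomal P450 enzymes and heme oxygenase, varied widely between libraries. Its values were 6.23, 5.60, 1.90 and 0.333 RPKM in WT-NS and 3.23, 2.67, 0.805 and 1.76 in WT-ST. In the knockouts they were 4.41, 3.86, 17.5 and 0.983 RPKM in Cko-NS and 2.67, 3.01, 9.07 and 5.59 in Cko-ST. The groups overlapped in both genotypes. In libraries numbered 01 to 03 the stroke value was 0.423 to 0.778 of the same-numbered non-stroke value in either genotype, and in those numbered 04 it was 5.29 and 5.69 times as high. The 2 highest values came from the 2 knockout libraries numbered 03 and the 2 lowest non-stroke values from those numbered 04. Log2 differences were -0.31 ± 0.60 (SE) in the controls, with a 95% interval of -1.58 to 0.96, and 0.00 ± 0.60 in the knockouts, from -1.26 to 1.27, and a fall of 1 log2 unit lies inside both. Without the libraries at odds with their sex label the knockout value was -0.78 (adjusted p = 0.444). Por rested on an estimated 12.8 reads in WT-NS-04 and 534 in Cko-NS-03, the range over the libraries.

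Sult1a1, which sulfonates phenolic compounds including phenolic drugs and monoamine metabolites, was chosen for its fall, and its values describe how that fall was spread over libraries. It stood at 109.8, 129.2, 125.4 and 141.9 RPKM in WT-NS and 38.5, 39.8, 15.8 and 41.6 in WT-ST. In the knockouts it stood at 222.9, 235.4, 249.0 and 169.7 RPKM in Cko-NS and 18.7, 15.9, 71.9 and 7.22 in Cko-ST. All 8 stroke libraries were below all 8 non-stroke libraries, across genotypes as well as within them. The WT-ST mean was 26.8% of the WT-NS mean, and the Cko-ST mean 13.0% of the Cko-NS mean. The log2 difference of Sult1a1 was -1.95 in the controls and -3.37 in the knockouts, with no rank among genes given because of that choice. The share left in each same-numbered pair ran from 0.126 to 0.351 in the controls and from 0.0425 to 0.289 in the knockouts, and the highest knockout share was that of number 03, whose stroke library is at odds with its sex label. Without that library and Cko-NS-04 the knockout value was -4.08.

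In the non-stroke hemisphere the 4 Cko-NS libraries, at 169.7 to 249.0 RPKM, all lay above the 4 WT-NS libraries, at 109.8 to 141.9. These non-stroke values entered the choice of Sult1a1, and nothing is read from their order. The ratio of the means was 1.73. In the stroke hemisphere the order of the means was the other way, 28.4 ± 29.4 RPKM in Cko-ST and 33.9 ± 12.2 in WT-ST (SD, n = 4), with overlapping libraries. Ordered by mean, Sult1a1 was highest in Cko-NS, then WT-NS, then WT-ST, then Cko-ST, and only the last 2 neighbours overlapped.

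Maoa was lower after stroke by less than the other called members. Its levels were 141.0, 157.2, 134.3 and 159.7 RPKM in WT-NS and 87.0, 111.5, 66.1 and 89.7 in WT-ST, without overlap. The log2 difference was -0.75 ± 0.24 (SE; adjusted p = 0.0409). This call was close to the threshold: leaving out any 1 of 7 of the 8 libraries, all but WT-ST-02, ended it, with adjusted p from 0.0580 to 0.129, as did no filter on low values (0.0867) and a fit without trend (0.0728). In the knockouts Maoa stood at 162.6, 122.3, 78.0 and 156.3 RPKM in Cko-NS and 61.4, 49.9, 52.8 and 93.2 in Cko-ST. The highest stroke value, of Cko-ST-04, was above the lowest non-stroke value, of Cko-NS-03. Maoa fell there, with a log2 difference of -0.99 ± 0.24 (adjusted p = 0.00786), and -0.80 without the 2 libraries at odds with their sex label (adjusted p = 0.0564). Maoa is X-linked, Cko-NS-04 and Cko-ST-04 were the 2 stroke-experiment libraries with male sex-linked genes, and the part of sex in these values was not tested. In all 8 same-numbered pairs the stroke value was the lower one, at 0.378 to 0.709 of the non-stroke value.

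**Figure D2:**
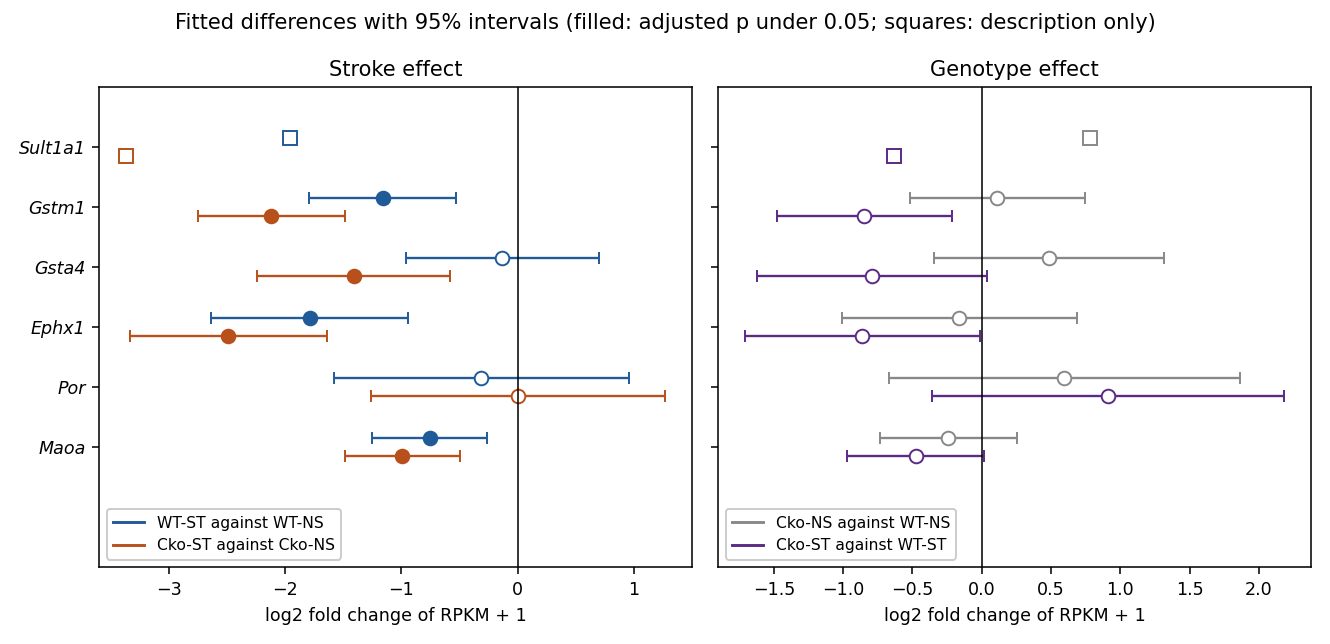
Log2 differences of the 6 enzyme genes on the log2(RPKM + 1) scale for stroke (left, in controls and knockouts) and genotype (right, in each hemisphere); circles are tested genes with 95% intervals, filled where the adjusted p is under 0.05, and squares are Sult1a1, a value with no interval or test. Ephx1, Gstm1 and Maoa intervals lie below 0 in both stroke comparisons, and the Por intervals include 0 in all 4 comparisons shown.

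WT-ST-03 had the lowest value of its group for all 6 genes, and each of the other 3 WT-ST libraries had the highest value for 2. In the knockouts Cko-ST-03 had the highest value for 4 of the 6 and Cko-ST-04 the lowest for 3. WT-ST-03 differed from the other 3 WT-ST libraries in mural markers as well, at a sum of 49.3 RPKM against 12.5 to 27.5, of which Rgs5 alone made 43.8 against 5.03 to 20.5. Its Acta2 (2.28) lay within, and its Vtn (0.611) below, the other libraries' values, and Kcnj8 was at 0. Its endothelial marker sum of 1497 was the lowest of the group, against 1591 to 1975. The part of these values in the levels of the 6 genes was not tested.

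Levels of other cells' markers also differed between hemispheres. Neuron markers summed to 15.7 to 25.6 RPKM in WT-NS and 8.51 to 20.3 in WT-ST, and to 11.3 to 49.7 in Cko-NS and 4.43 to 8.63 in Cko-ST, with Syt1, Rbfox3 and Slc17a7 of the 6 at 0 in Cko-ST. Mural markers ranged from 50.5 to 70.6 RPKM in WT-NS and from 12.5 to 49.3 in WT-ST, and from 23.5 to 33.8 in Cko-NS and 15.6 to 103 in Cko-ST. Microglia and macrophage markers had medians of 30.2 and 14.3 RPKM in WT-NS and WT-ST and of 26.8 and 14.8 in Cko-NS and Cko-ST. Red cell and platelet markers had medians of 4870 and 2197 RPKM in the controls and 5228 and 1596 in the knockouts, and choroid plexus markers 350 and 173, and 387 and 61.4. Blood leukocyte markers went from a median of 0 RPKM to 15.5 in the controls and from 12.6 to 9.74 in the knockouts. Astrocyte markers summed to at most 18.2 RPKM and fibroblast markers to at most 2.08. Ranges of all these lists overlapped between hemispheres in at least 1 genotype. Their part in the stroke comparisons was not tested.

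Other genes of the pathways were taken from 6 lists, whose counts and medians stand beside medians of 0.01 in the controls and -0.13 in the knockouts over all genes, of which 8.46% and 6.44% were called higher and 4.84% and 8.71% lower. In the cytochrome P450 system, the enzymes served by Por and their electron partners, 17 of 29 listed genes were tested. In the controls 1 of them rose and 0 fell, with a median log2 difference of -0.14 against 0.01 for all genes. That gene was Hmox1, the heme-degrading and stress-inducible heme oxygenase, at 2.89 ± 2.21 RPKM in WT-NS and 22.7 ± 13.3 in WT-ST (SD, n = 4), a log2 difference of 2.52 ± 0.49 (SE; adjusted p = 0.00217). In the knockouts 1 rose and 4 fell, with a median of -0.31 against -0.13. Hmox1 rose there by 3.11 ± 0.49 on the log2 scale, and Cyp2d22 fell from 57.3 to 15.5 RPKM, by 2.07 ± 0.40 on the log2 scale. Cyp39a1, an oxysterol hydroxylase, fell by 1.50 and lost its call without the libraries at odds with their sex label (adjusted p = 0.0771). Cyp4v3 (-0.89) was called at an adjusted p of 0.0440, which was lost when any of 7 libraries, all but Cko-NS-01, was left out (0.0721 to 0.123), with the replicate block (0.0704), without the 2 libraries at odds with their sex label (0.147), and with either other pseudocount, no filter, either other scaling or the 2-group fit (0.0504 to 0.123). With median-of-ratios or quantile scaling this list had 2 genes higher and 2 lower in the knockouts.

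Among 16 tested genes of glutathione conjugation, the 2 subunits of glutamate-cysteine ligase, which catalyses the first step of glutathione synthesis, rose in the controls and Gstm7 fell. In the knockouts Gclm rose and Gstm7 fell. Gclc went from 11.2 ± 3.94 RPKM in WT-NS to 32.5 ± 6.04 in WT-ST, a log2 difference of 1.49 ± 0.25, and Gclm from 29.3 ± 9.75 to 68.3 ± 4.97, one of 1.26 ± 0.23. Both groups of libraries stood apart for both genes. In the knockouts the log2 differences were 0.83 for Gclc and 0.98 for Gclm. The knockout call of Gclc was lost without any of 6 libraries, all but Cko-NS-01 and Cko-ST-04 (adjusted p 0.0621 to 0.0923), in the 2-group fit (0.0619), and without the 2 libraries at odds with their sex label (log2 difference 0.64, adjusted p = 0.147). Without those 2 libraries the list had 1 gene higher and 3 lower in the knockouts. Gstm7, a mu-class relative of Gstm1, fell by 1.65 ± 0.48 on the log2 scale in the controls and by 1.82 in the knockouts. Its control call ended without WT-NS-01, WT-NS-02, WT-NS-04, WT-ST-02 or WT-ST-03 (adjusted p 0.0537 to 0.109) or with no filter (0.0828), and its knockout call without Cko-NS-01 (0.0585). Gstk1, a mitochondrial and peroxisomal transferase, fell in the knockouts by 2.05 ± 0.42 on the log2 scale, and in the controls its value was 0.94 (adjusted p = 0.151). In all, 2 of 16 rose and 1 fell in the controls (median -0.11) and 2 rose and 2 fell in the knockouts (median -0.39).

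Sulfonation had 4 tested genes besides Sult1a1 of 14 listed, and none was called in either genotype. Bpnt1, which clears the by-product of sulfonation and was named for its mean RPKM, was at 45.6 ± 6.56 RPKM in WT-NS and 53.2 ± 2.82 in WT-ST (log2 difference 0.23 ± 0.23, adjusted p = 0.573). In the knockouts its log2 difference was 0.15 ± 0.23 (adjusted p = 0.705). The list's medians were -0.38 and -0.29 in controls and knockouts.

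Of the other xenobiotic enzymes 15 of 27 were tested, with 2 higher and 2 lower in the controls (median -0.50) and 1 higher and 5 lower in the knockouts (median -0.83). Nqo1, the NAD(P)H quinone reductase, rose from 6.70 ± 3.63 RPKM in WT-NS to 76.4 ± 31.7 in WT-ST, a log2 difference of 3.41 ± 0.50 (adjusted p = 1.77e-04), and in the knockouts by 2.84 ± 0.50. Its relative Nqo2 fell in the controls, with a log2 difference of -1.27 ± 0.30, and was at -0.86 in the knockouts (adjusted p = 0.0604). The flavin monooxygenase gene Fmo5 fell in the controls (-1.39) and in the knockouts (-1.27), where the call was lost without Cko-NS-04 or Cko-ST-02 (adjusted p 0.0519 to 0.0663) and without both libraries at odds with their sex label (-1.10, adjusted p = 0.0739). Fmo1 (-2.14) and Xdh, the purine-oxidising xanthine dehydrogenase (-2.26), fell in the knockouts, and in the controls their values were -1.43 (adjusted p = 0.0772) and -1.30 (0.0909). The Fmo1 call was lost in the 2-group fit (0.0517). Akr1b3, the aldose reductase, rose in the controls by 1.68 on the log2 scale, a call lost without WT-NS-03, WT-NS-04, WT-ST-01 or WT-ST-04 (adjusted p 0.0502 to 0.0752) or with no filter (0.0581), and was at -0.40 in the knockouts (0.604). Under both other scalings 3 of these genes fell in the knockouts in place of 5.

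In monoamine handling 11 of 24 listed genes were tested beside Maoa, with 0 higher in either genotype, 1 lower in the controls (median -0.64, against 0.01 for all genes) and 4 lower in the knockouts (median -1.13, against -0.13). Of all genes, 4.84% were called lower in the controls and 8.71% in the knockouts, and 1 of 11 in the controls is not read as a result about the list. Ddc fell from 122 ± 26.0 RPKM in WT-NS to 32.9 ± 16.1 in WT-ST and from 103 ± 38.4 in Cko-NS to 17.8 ± 7.60 in Cko-ST (SD, n = 4). The log2 differences were -2.01 ± 0.40 (adjusted p = 0.00235) and -2.47 ± 0.40 (adjusted p = 4.16e-04), both without overlap and called under every alternative. Aldh2, the mitochondrial dehydrogenase that oxidises the aldehydes Maoa produces, fell in the knockouts by 1.36 ± 0.31 on the log2 scale, and its value in the controls was -0.64 (adjusted p = 0.193). Aldh9a1 (-1.13) and Maob (-1.15), the second monoamine oxidase, also fell in the knockouts. The Aldh9a1 call was lost without Cko-ST-01 (adjusted p = 0.0559) and without the 2 libraries at odds with their sex label (0.0502). That of Maob was lost without any of 7 libraries, all but Cko-ST-02 (0.0655 to 0.123), without the 2 libraries at odds with their sex label (0.137), with no filter (0.0886) and under both other scalings (0.0575 and 0.0663). Under both other scalings 3 genes fell in place of 4, and without the 2 libraries at odds with their sex label, 2.

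Among 7 tested regulators of these enzymes 0 were called in either genotype, with medians of -0.21 in the controls and 0.27 in the knockouts. Nfe2l2, which encodes Nrf2, was at 22.4 ± 3.94 RPKM in WT-NS and 31.1 ± 3.52 in WT-ST (log2 difference 0.47, adjusted p = 0.199) and at 22.6 ± 6.06 in Cko-NS and 27.4 ± 7.46 in Cko-ST (0.27, adjusted p = 0.471); it was singled out after its values were seen. Klf11, named for its mean RPKM, had log2 differences of -0.30 ± 0.21 (adjusted p = 0.381) and 0.31 ± 0.21 (adjusted p = 0.339).

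**Figure D3:**
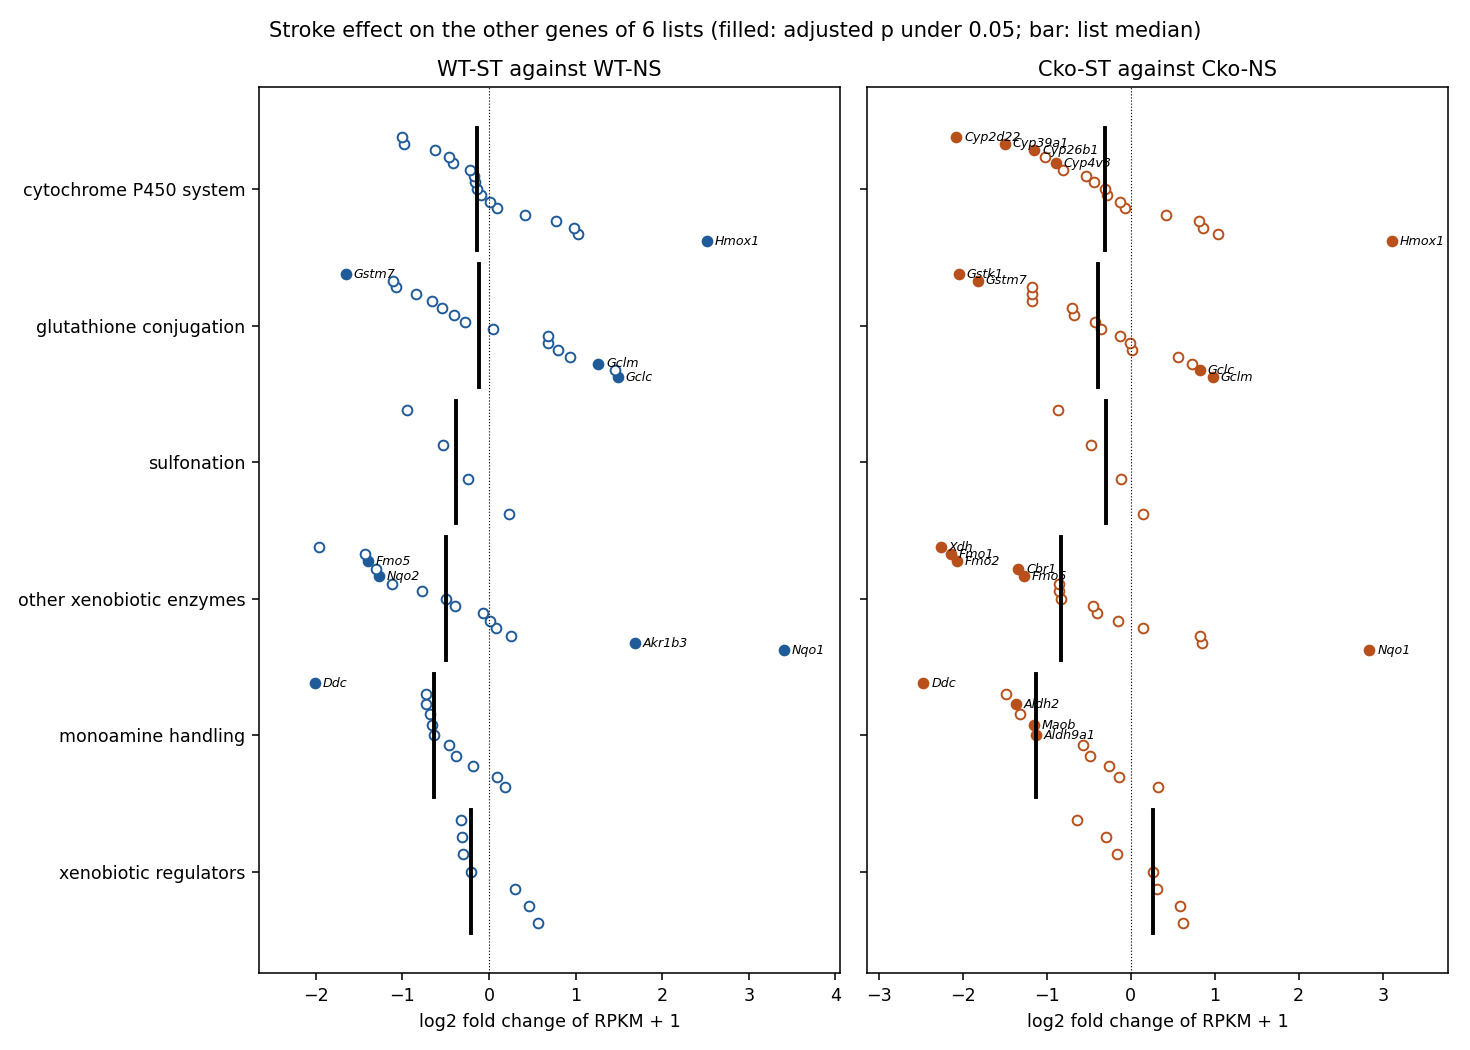
Log2 differences after stroke of the tested genes of the 6 pathway lists in controls and knockouts, on the log2(RPKM + 1) scale, a point per gene. Nqo1 and Hmox1 lie highest, at 3.41 and 2.52 in the controls, and Ddc is the lowest monoamine gene in both genotypes, at -2.01 and -2.47.

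Between the 2 Gpr124 genotypes, no tested member was called in either hemisphere. In the non-stroke hemisphere 0 of 5 passed, 0 of them with an unadjusted p under 0.05, where 0.315% of all genes were called (31 genes, and 1405, or 14.3%, at an unadjusted p under 0.05). The difference of Por was 0.60 ± 0.60 (SE; 95% interval -0.67 to 1.86), and 0.019 without Cko-NS-03 or 1.09 without Cko-NS-04. That of Gsta4 was 0.49 ± 0.40 (-0.34 to 1.32), and 0.056 without Cko-NS-04. Gstm1 was at 0.11 ± 0.30 (-0.52 to 0.75), Ephx1 at -0.16 ± 0.40 (-1.01 to 0.68) and Maoa at -0.24 ± 0.24 (-0.74 to 0.25). In the stroke hemisphere 0 of 5 passed, where 0% of all genes did and 476 genes (4.84%) had an unadjusted p under 0.05. Gstm1 (-0.85 ± 0.30, unadjusted p = 0.0117, adjusted p = 0.930 in limma) and Ephx1 (-0.86 ± 0.40, unadjusted p = 0.0464, adjusted p = 0.994) were the 2 members among these. Gsta4 was at -0.79 ± 0.40, Maoa at -0.48 ± 0.24 and Por at 0.91 ± 0.60, all with an adjusted p of 0.994. These comparisons share their libraries with the stroke comparisons. In the 6 pathway lists 0 genes were called for genotype in either hemisphere.

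Whether stroke acted differently in the 2 genotypes was tested as the interaction, the knockout difference minus the control difference. No member passed, where 0% of all genes did, and 691 genes (7.02%) had an unadjusted p under 0.05. Gsta4 (-1.28 ± 0.56 SE, unadjusted p = 0.0344, adjusted p = 0.681 in limma) and Gstm1 (-0.96 ± 0.43, unadjusted p = 0.0374, adjusted p = 0.686) were 2 of them, with 95% intervals of -2.45 to -0.11 and -1.85 to -0.06. Ephx1 was at -0.70 ± 0.57 (-1.90 to 0.50), Maoa at -0.24 ± 0.33 (-0.94 to 0.46) and Por at 0.32 ± 0.85 (-1.48 to 2.11). The difference between the 2 stroke values of Sult1a1 was -1.41, as a description. The median of all genes was -0.14 here and 0.00 after median-of-ratios scaling.

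Stabilised beta-catenin gave no call among the 6 genes either, where 0% of 11252 genes were called and 590 (5.24%) had an unadjusted p under 0.05. In the same libraries Axin2, a direct target gene of beta-catenin, was at 48.4 ± 5.42 RPKM in Bcat (SD, n = 3) and 27.3 ± 1.45 in the WT libraries (SD, n = 2), without overlap. The Ctnnb1 level does not report the deletion of 1 exon.

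Ephx1 was at 31.5, 37.7 and 35.2 RPKM in Bcat-01 to 03 and 71.1 and 54.6 in WT-01 and WT-02. The Bcat libraries were all lower, as in 11.7% of all genes. The log2 difference was -0.83 ± 0.26 (SE; 95% interval -1.42 to -0.23), with an unadjusted p of 0.0122 and an adjusted p of 0.901 in limma. Gstm1 was at 156.6, 150.4 and 144.0 RPKM in Bcat and 122.6 and 96.2 in WT. Its Bcat libraries were all higher, as in 8.66% of all genes, with a log2 difference of 0.46 ± 0.22 (-0.04 to 0.97; adjusted p = 0.957).

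The other members overlapped between the groups. Sult1a1 varied most, at 21.6, 43.3 and 120.7 RPKM in Bcat and 90.2 and 20.3 in WT, and its log2 difference of 0.17 ± 0.73 had an interval of -1.49 to 1.82. Leaving out a single library moved that value between -0.88 (without WT-02) and 1.22 (without WT-01). Gsta4 was at 284.2, 215.9 and 83.2 RPKM in Bcat and 143.4 and 165.2 in WT (0.16 ± 0.45, interval -0.85 to 1.17). Por was at 7.47, 22.4 and 24.0 RPKM against 14.7 and 39.7 (-0.57 ± 0.57, interval -1.85 to 0.71). Maoa was at 68.1, 78.9 and 81.3 RPKM against 46.5 and 79.8 (0.31 ± 0.29, interval -0.33 to 0.96). Choroid plexus markers, mostly Ttr, also varied within the groups, from 22.9 to 1026 RPKM in Bcat and at 1202 and 68.2 in WT-01 and WT-02; their part was not tested. None of the genes in the 6 pathway lists was called.

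**Figure D4:**
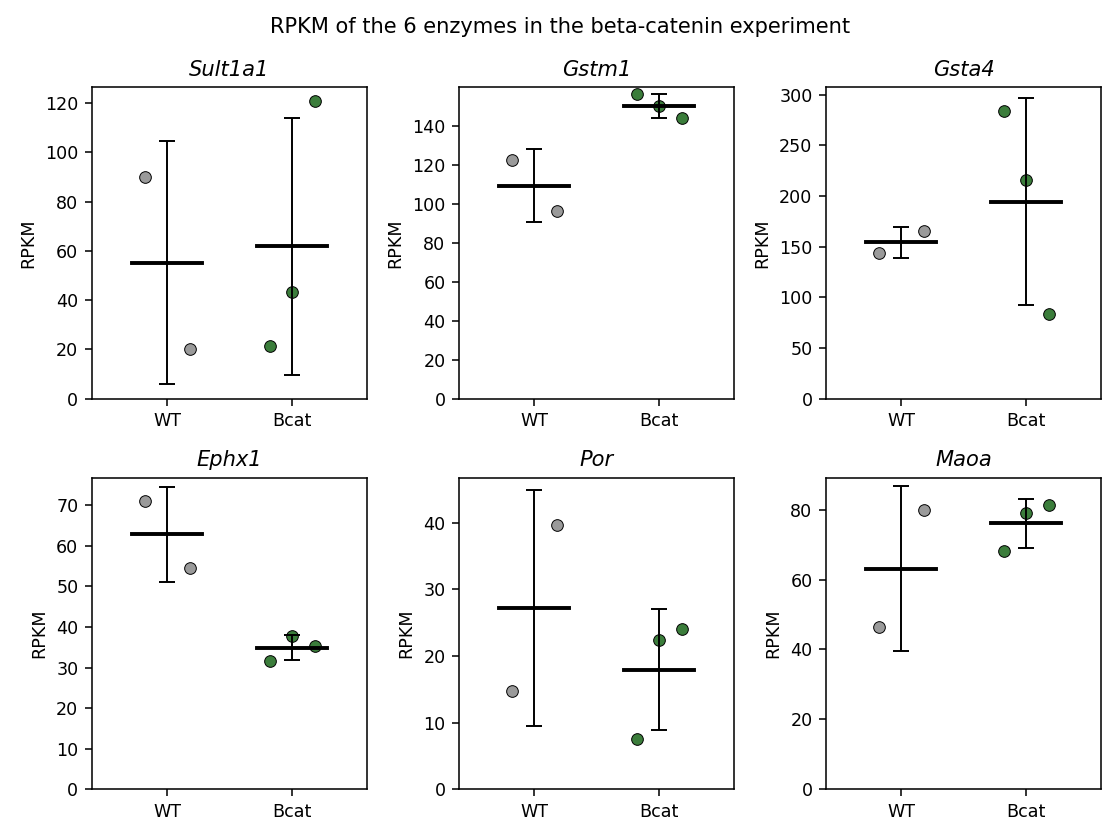
RPKM of the 6 enzyme genes in the 3 Bcat and 2 WT libraries of the beta-catenin experiment, a panel per gene with a linear axis starting at 0. Points are libraries and bars means with 1 SD; Ephx1 is lower and Gstm1 higher in all Bcat libraries, and the Sult1a1 libraries span 20.3 to 120.7 RPKM across both groups.

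The genes whose levels followed each member most closely were found by Pearson's r of log2(RPKM + 1) over the 16 stroke libraries, among 5579 genes. Group means enter this measure, so the r of deviations from the group means is given beside it. For Sult1a1 they were Fry (0.975, and 0.888 within groups), Wfdc1 (0.968 and 0.874), Cd59a (0.966 and 0.810), Map4k2 (0.965 and 0.792) and Ccdc141 (0.965 and 0.916). Gstm1 was followed by Slc22a8, the organic anion transporter OAT3 of the blood-brain barrier (0.968 and 0.833) and Fcgrt, the neonatal Fc receptor (0.959 and 0.805). For Ephx1 they were Mtss1 (0.958 and 0.822), Ocln, the tight junction protein occludin (0.953 and 0.758) and Ifnar1 (0.952 and 0.820). Maoa was followed by Slc16a4 (0.949 and 0.827), Gatm, the first enzyme of creatine synthesis (0.935 and 0.763) and Arhgap5 (0.913 and 0.777). Values for Gsta4 were lower, with Ppp3cc at 0.883 (0.894 within groups), AU021092 at 0.872 and Tbc1d10a at 0.860, and for Por lower still, with Tbc1d23 at 0.863 (0.913), Lgals8 at 0.783 and Rnf40 at 0.728. The libraries share preparation and hemisphere, and these values are a description with no test.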

How the data were processed

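RNA-seq of 21 libraries was analysed from 1 deposited table of RPKM values, which the authors made with edgeR on mm10, per the submitters' processing notes, with aligner, annotation and gene lengths not given in the sources used here. RPKM hides depth, and dividing 3' reads by gene length makes levels of different genes uncomparable. Of 24260 rows, 54 with 23 shared names were left out; 27 rows carry a date as a name, 5862 are 0 throughout, and 8 columns that match no sample were not used. Genes with a mean of at least 1 RPKM were tested on log2(RPKM + 1), which understates changes of low genes, with limma 3.58.1 in R 4.3.3 (eBayes with trend, two-sided, Benjamini-Hochberg over all genes, threshold 0.05): 1 fit of 4 groups for 16 stroke libraries and 1 of 2 groups for the other 5. Xist and Y-linked genes were left out. RPKM errors are SD and log2 errors SE. The procedure was tested on simulated data.

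The members and lists were chosen with earlier results of these data known. The 6 members are always named; from each list the called genes with the lowest p are named, up to 4, or the one with the highest mean RPKM where none was called, a rule for naming only, and for likeness the 3 genes (5 for Sult1a1) with the highest r among those with a mean of at least 5 RPKM; some items are not reported here. Depth was estimated from short genes and is partial, so no count test was run. In the knockouts, same-numbered NS and ST libraries deviated together (correlations 0.100 to 0.214, other numbers -0.162 to 0.0543), a pairing read from the data; blocked values changed no member's call. Alternatives were other pseudocounts, filters and scalings, the replicate block, no trend, 2-group fits and left-out libraries.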

Additional observations from a re-analysis of the deposited data

Results flagged for a closer look

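Over 24 combinations of member and stroke group, Dixon's gap ratio passed its 95% level for 2 libraries, each set against the other 3. Chance gives about 1 in 20 groups, so hits can come by chance alone in a search of 24. These 2 are flagged as a description and are not read as more than chance. Sult1a1 in WT-ST-03 was 15.8 RPKM, with the nearest library at 38.5 and a gap of 0.880 of the group's range. Sult1a1 was chosen for its fall in these libraries, so its gap is a description and no test. Gsta4 in Cko-NS-04 was 65.7 RPKM, with the nearest library at 22.1 and a gap of 0.886 of the range. Cko-NS-04 is 1 of the 2 libraries whose sex-linked genes go against their label, and without it the Gsta4 difference after stroke in the knockouts was -0.98 (adjusted p = 0.0647 in limma).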

How the results depend on the processing

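Ephx1 in both genotypes and Gstm1 in the knockouts kept their call under every alternative run. Without the 2 libraries at odds with their sex label, 2 members in place of 4 fell in the knockouts, and Por was at -0.78 there and -0.46 in the interaction. The number of genes called for genotype in the non-stroke hemisphere, 31, was 19 with no filter, 12 without trend, 2 with the 2 groups alone and 1 to 41 with a library left out; Gstm1 there was -0.023 with median-of-ratios scaling. With the replicate block that number was 60 and no member's call changed. Sult1a1 in the beta-catenin comparison was -0.48 with the block, the same value as without Bcat-03, which has no same-numbered WT library. Same-numbered Bcat and WT libraries correlated by only -0.00749 to 0.00628. Control NS and ST libraries of 1 number correlated by 0.0117 to 0.130, 3 of 4 best with their own, and share only a number. Leaving out a library gave -0.31 to 0.10 for Gsta4, -0.80 to 0.011 for Por and 1 to 3 members lower in the controls, 1 without WT-ST-03; -0.49 to 0.58 for Por and -0.11 to 0.31 for Bpnt1 in the knockouts; -0.18 to 0.89 for Por in the interaction; 0 to 8 genes for genotype in the stroke hemisphere; and, with beta-catenin, -0.88 to 1.22 for Sult1a1, -0.20 to 0.68 for Gsta4, -1.25 to 0.12 for Por and -0.072 to 0.70 for Maoa. The cause was not tested. With WT-01 or WT-02 left out, the remaining library is assumed to vary like the Bcat libraries. In the knockouts the genes called higher and lower, 634 and 857, became 867 and 604 with median-of-ratios scaling, which moved the median of all genes from -0.13 to -0.01. The authors' gene lengths are unknown.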
